A study of Drosophila melanogaster with 9 samples.

Results

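The 10 genes described here are among those whose enzymes dispose of superoxide, and of the hydrogen peroxide made from it, in Drosophila melanogaster: the superoxide dismutases Sod1, Sod2 and Sod3, the catalase Cat, and the peroxiredoxins Prx2, Prx3, Prx5, Prx6b, Prx6c and CG12896. They were taken by gene symbol or synonym, and the list was made with earlier results of these data known. The peroxiredoxins Prx4 and Prx6a are in a separate list given below. The 20 RefSeq transcript entries of the 10 genes were summed per gene. The members are 10 of the 15413 genes or unmatched transcripts in the count table, and all 10 were among the 11430 that passed the filter on low counts.

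RNA-seq counts came from 3 groups of 3 libraries. The glial line (repo>Dube3a) drove the UAS-Dube3a transgene Das45 from the pan-glial repo promoter. The neuronal line (elav>Dube3a, named C155 in the labels) drove it from the pan-neuronal elav promoter. The control (named w_Das45 in the labels) carried the transgene alone. Dube3a is the fly form of the ubiquitin ligase UBE3A, and its counts appear under Ube3a in RefSeq. All flies were kept at 25 degrees C, with an age given as about 3 days in one place and 3 to 5 days after eclosion in another, and each sample pooled 15 to 25 flies. The control had no GAL4 driver, so the driver insertion, its genetic background and Dube3a itself cannot be told apart.

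Superoxide dismutases convert superoxide into hydrogen peroxide and oxygen. Catalase, a peroxisomal heme enzyme, breaks hydrogen peroxide down without an external reductant, whereas peroxiredoxins reduce it through a reactive cysteine that is then recharged, for most of the family, by thioredoxin. Neurons and glia consume much oxygen, and loss of Sod1, Sod2 or Cat shortens fly lifespan.

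Libraries held 35550949 to 60322417 counts, glial 1 being the deepest. Levels are CPM, counts scaled to a library total of 1000000. Ube3a stood at 209 ± 17.5, 70.4 ± 7.95 and 34.6 ± 4.58 CPM in the glial, neuronal and control libraries (mean ± SD, n = 3 each), so the transgene's gene followed the labels. The sample labels name brain, while the design text speaks of heads, and the eye rhodopsin gene ninaE was at 35390 ± 7898, 32020 ± 2362 and 35800 ± 2584 CPM in the glial, neuronal and control libraries. The mean log2 CPM of 25 gut markers spanned 2.73 to 6.71 in glial, 4.40 to 6.07 in neuronal and 2.14 to 6.06 in control libraries, so gut transcripts varied within each genotype. In such bulk RNA, fewer cells of a type and less RNA per cell cannot be told apart. The labels do not say that libraries were separate crosses, and p-values here measure only the spread between these libraries.

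To compare genes with each other, CPM was divided by the annotated exonic length in kb. Prx2, an abundant cytosolic peroxiredoxin, had the highest level in every group, at 702 ± 66.1 CPM per kb in glial, 557 ± 51.1 in neuronal and 608 ± 37.1 in control libraries. Cat and Prx5 followed in all groups. In the control their levels of 443 ± 3.71 and 468 ± 86.9 CPM per kb lay within their spread of each other. Cat was above Prx5 in the glial (485 ± 67.0 against 354 ± 30.8) and neuronal libraries (406 ± 21.9 against 301 ± 13.8). Prx5 was counted alone here, but its exonic bases are shared with CG7215, at 254, 218 and 337 CPM in glial, neuronal and control libraries. How reads were divided between them is not known, so the place of Prx5 against Prx2 and Cat is uncertain.

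Sod1, Sod2 and Prx3 lay between 84.3 and 160 CPM per kb in all groups, and Sod1 and Sod2 did not differ beyond their spread in any group. Sod3 changed its place in this order. In the control it stood at 121 ± 15.6 CPM per kb, within the spread of Sod2, but in the glial libraries at 39.9 ± 1.88, next to Prx6b at 41.3 ± 10.01. Prx6b, Prx6c and CG12896 had the lowest levels of the peroxiredoxins, from 8.27 CPM per kb for CG12896 in neuronal libraries to 60.9 for Prx6b in control libraries. In the control, CG12896 at 38.2 ± 10.7 and Prx6c at 34.9 ± 6.87 CPM per kb did not differ beyond their spread, whereas in neuronal libraries Prx6c at 24.8 ± 0.10 stood above Prx6b at 11.5 ± 0.17.

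**Figure D1:**
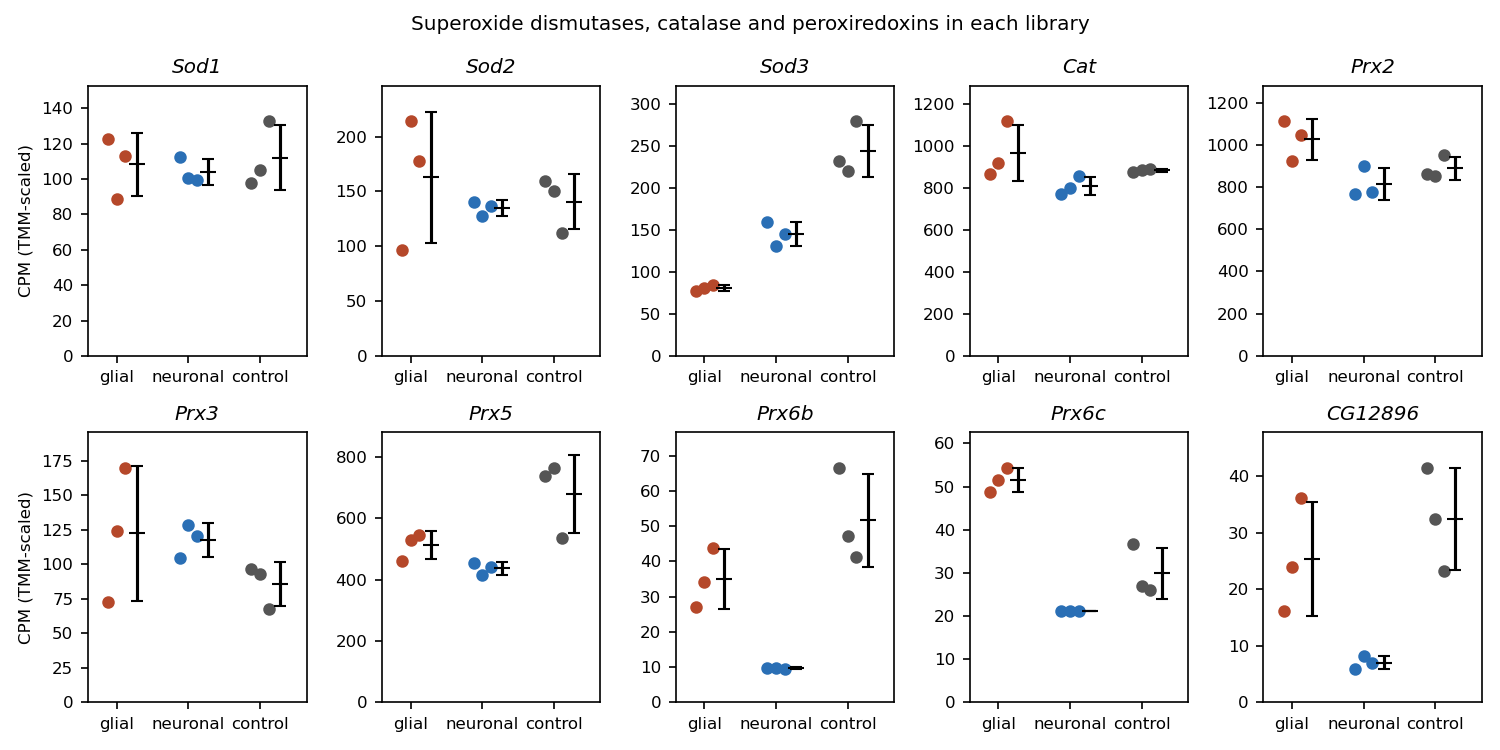
CPM on TMM-scaled library sizes (vertical axes, each from 0) of the 10 genes in each library of the glial, neuronal and control groups; points are libraries, and the bar beside them is the mean ± SD of 3. Sod3 is separated in all 3 groups, the neuronal libraries lie lowest for Prx6b, Prx6c and CG12896, and Sod1, Sod2 and Cat overlap or nearly touch between groups.

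Among the dismutases, Sod3 was the gene that differed between genotypes. Sod3 encodes the extracellular copper and zinc enzyme and lies on chromosome arm 2R. It was at 76.7, 80.7 and 84.4 CPM in the glial libraries, 159, 131 and 145 CPM in the neuronal libraries, and 232, 220 and 280 CPM in the control libraries. No library of any group reached into the range of another, and the order was glial, neuronal, control.

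In the glial line Sod3 fell 3.03-fold against the control, a log2 fold change of -1.60 ± 0.13 (SE; edgeR quasi-likelihood test, Benjamini-Hochberg adjusted p = 0.00041). That call held under all 17 alternative settings that keep sums per gene, with log2 fold changes of -1.72 to -1.49. In the neuronal line the difference from the control was -0.75 ± 0.13 (adjusted p = 0.0437). This call was lost under 13 of the 17 alternatives, among them the omission of any single library, the replicate block (adjusted p = 0.107) and a gut covariate (adjusted p = 0.117), with log2 fold changes of -0.84 to -0.64 and adjusted p-values of 0.0552 to 0.261. Set directly against the neuronal line, the glial line was lower by a log2 fold change of -0.85 ± 0.13 (adjusted p = 0.00943), which held under those 17. In the fit over single transcripts 3 of the 5 Sod3 entries passed in this comparison, and NM_001038850 (-0.45 ± 0.11, adjusted p = 0.0631) and NM_001043071 (-0.40 ± 0.11, adjusted p = 0.0773) did not. Of the 3, NM_136838 and NM_165829 held similar counts. How reads were divided between entries is not known, so these may not be independent.

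The 5 transcript entries of Sod3 did not fall to the same extent. NM_136838 and NM_165829 were at 8.72 ± 0.63 and 8.71 ± 0.56 CPM in glial libraries, 23.7 ± 3.62 and 23.1 ± 5.81 CPM in neuronal libraries, and 45.2 ± 7.38 and 45.02 ± 9.39 CPM in control libraries. Their glial log2 fold changes against the control were -2.40 ± 0.17 for NM_136838 (adjusted p = 0.00019) and -2.40 ± 0.22 for NM_165829 (adjusted p = 0.0007), in a fit over single transcripts. NM_001038850 and NM_001043071 fell less, by log2 fold changes of -1.09 ± 0.11 and -1.10 ± 0.11 (adjusted p = 0.00146 and 0.00097).

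NM_001316415, the entry with the highest counts in all libraries but glial 1, lay between these pairs at -1.61 ± 0.16 (adjusted p = 0.00098). The first pair held 24.3%, 21.6% and 19.3% of the Sod3 counts in the glial libraries, 35.4%, 28.7% and 32.1% in the neuronal libraries, and 35.9%, 35.4% and 39.1% in the control libraries. The glial shares lay below those of all 6 other libraries, and the neuronal and control shares met at their edges, 35.4% in each. The difference between transcript entries in their fold changes was not itself tested.

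**Figure D2:**
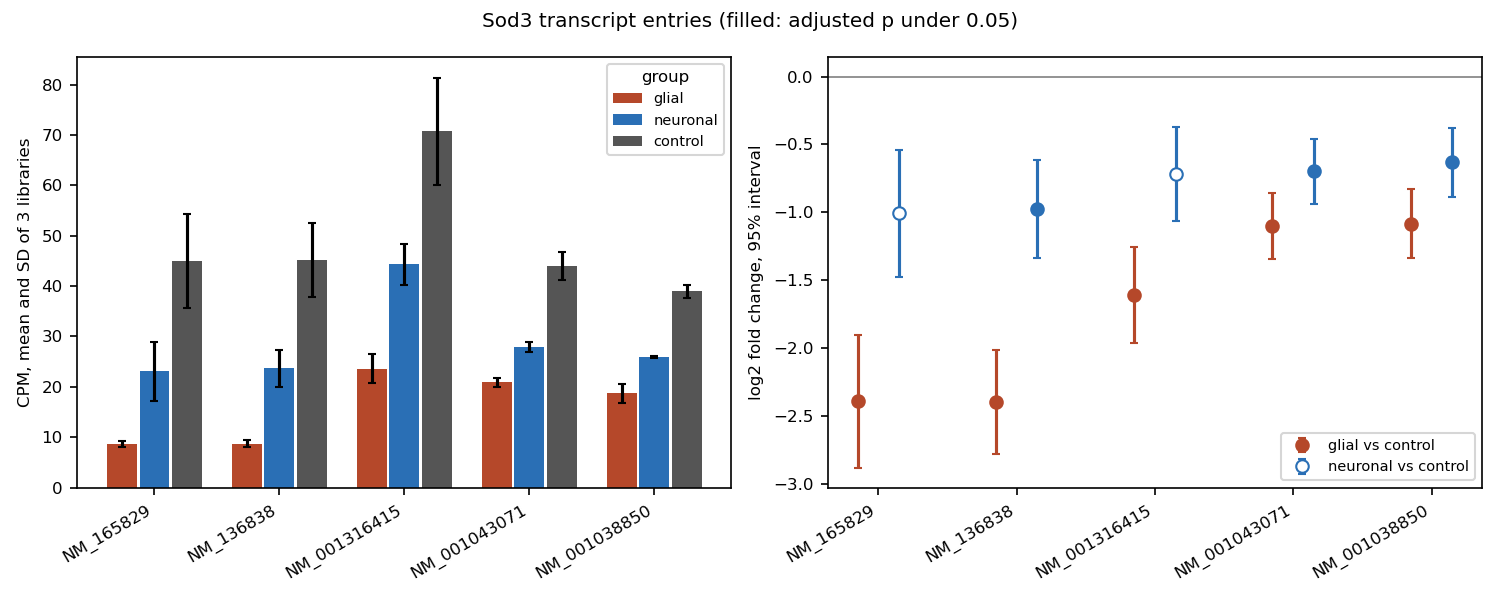
Sod3 transcript entries: on the left the mean CPM of 3 libraries (bars from 0, error bars SD) in the glial, neuronal and control groups, on the right log2 fold changes against the control with 95% intervals, filled where the adjusted p is under 0.05. The glial fold changes run from -2.40 for the 2 entries at the left to -1.09 at the right, while the neuronal ones lie between -1.01 and -0.63 with overlapping intervals.

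Copper proteins and glial genes are given beside Sod3 because it needs copper and because glia carried the transgene. None of 10 tested genes for copper supply and metallothioneins passed the edgeR threshold in any comparison. In glial against control 3 had an unadjusted p under 0.05 and DESeq2 called 2. In neuronal against control these counts were 0 and 0, and in glial against neuronal 3 and 1. Over all 11430 tested genes, 2280, 1518 and 2077 had an unadjusted p under 0.05 in these comparisons, in that order. The metallothionein gene MtnA, which stores metal, had 70.3 ± 1.53, 117 ± 48.2 and 166 ± 49.6 CPM in glial, neuronal and control libraries, and its glial difference from the control of -1.24 ± 0.30 missed the threshold (adjusted p = 0.0529).

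Of 14 glial markers, 4 were lower and 2 higher in the glial line than in the control, with 1.88% lower and 2.54% higher over all tested genes. The astrocyte gene alrm was at 101 ± 25.8 CPM in glial and 324 ± 60.1 CPM in control libraries (-1.68 ± 0.25, adjusted p = 0.00667), and the calcium exchanger gene zyd of cortex glia at 19.9 ± 3.32 CPM in glial and 49.5 ± 4.97 CPM in control libraries (-1.32 ± 0.15, adjusted p = 0.00232). Gli, a septate junction gene, was higher (0.91 ± 0.10, adjusted p = 0.00206). The summed level of the 14 was 2159 to 3202 CPM in glial, 3117 to 3790 in neuronal and 3344 to 3900 in control libraries, and none was at 0. Its part in the Sod3 difference was not tested.

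The other dismutases showed no difference past the threshold. Sod1, the cytosolic copper and zinc enzyme, was at 123, 88.7 and 113 CPM in glial, 113, 101 and 99.2 CPM in neuronal, and 98.0, 105 and 133 CPM in control libraries. These ranges overlapped, and the 95% intervals of the log2 fold change against the control were -0.41 to 0.31 for the glial line and -0.46 to 0.25 for the neuronal line.

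Sod2, the manganese enzyme of mitochondria, was at 96.6, 214 and 178 CPM in glial libraries, 141, 127 and 137 CPM in neuronal libraries, and 159, 150 and 112 CPM in control libraries. The glial libraries spanned the ranges of both other groups, with glial 1 the lowest and glial 2 the highest of all 9. Intervals against the control were -0.38 to 0.80 for the glial line and -0.65 to 0.53 for the neuronal line, so a change of the size seen for Sod3 in the glial line lay outside both. None of 14 mitochondrial markers passed the edgeR threshold in any comparison, 0 had an unadjusted p under 0.05, and DESeq2 and limma-voom called 0.

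Cat, on arm 3L, was at 865, 916 and 1117 CPM in glial libraries, 770, 799 and 856 CPM in neuronal libraries, and 875, 883 and 890 CPM in control libraries. The neuronal values lay just below the control values without overlap, and the glial range enclosed the control. Neither difference passed the threshold: 0.13 ± 0.14 for the glial line (adjusted p = 0.67, interval -0.20 to 0.46) and -0.13 ± 0.14 for the neuronal line (adjusted p = 0.761, interval -0.45 to 0.20).

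Prx2 was at 1112, 922 and 1047 CPM in glial, 769, 902 and 777 CPM in neuronal, and 864, 854 and 953 CPM in control libraries. All 3 glial values were above all 3 neuronal values, a log2 fold change of 0.33 ± 0.14 that did not pass (adjusted p = 0.266). Against the control the intervals were -0.12 to 0.53 for the glial line and -0.45 to 0.20 for the neuronal line. Its 5 transcript entries held nearly equal counts in each library, so they add nothing to the sum.

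Prx3, the mitochondrial peroxiredoxin, was at 73.0, 124 and 170 CPM in glial, 105, 129 and 121 CPM in neuronal, and 96.5, 93.2 and 67.6 CPM in control libraries. All neuronal values were above the control values, whereas the glial libraries, with the highest at 170 CPM, overlapped both other groups. The log2 fold changes against the control, 0.51 ± 0.27 for glial and 0.46 ± 0.27 for neuronal libraries, did not pass (adjusted p = 0.345 and 0.528), with intervals of -0.11 to 1.13 and -0.16 to 1.08.

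Prx5, known to act in mitochondria and other compartments, was at 462, 529 and 546 CPM in glial libraries, 453, 414 and 442 CPM in neuronal libraries, and 737, 765 and 534 CPM in control libraries. The neuronal values lay below all control values, and among the controls the glial values reached only control 3. The neuronal difference of -0.64 ± 0.16 missed the threshold with edgeR (adjusted p = 0.135) and passed with DESeq2 (adjusted p = 0.00633), and the glial difference was -0.41 ± 0.16 (adjusted p = 0.206).

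All 1449 annotated exonic bases of Prx5 are shared, on the same strand, with CG7215, and the transcript NM_142423 of CG7215 held about as many counts as each of the 2 Prx5 entries. Reads of Prx5 and CG7215 therefore cannot be told apart here. Summed into a single entry, Prx5 and CG7215 differed from the control by -0.41 ± 0.17 with the glial driver and -0.63 ± 0.17 with the neuronal driver (adjusted p = 0.213 and 0.141).

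Among the peroxiredoxins described here one by one, Prx6b, Prx6c and CG12896 had the widest differences. They are of the 1-Cys type, which uses a single catalytic cysteine. Prx6a, in the separate list of other peroxide-removing enzymes, did not pass the edgeR threshold in any comparison. The differences are therefore given for the named genes and not for the 1-Cys type as a whole. Prx6c, CG11825, CG33474, Prx6b and CG12896 follow each other on arm 2R, with CG12896 on the opposite strand to Prx6b and Prx6c. Prx6b and CG12896 both have 848 exonic bases and Prx6c has 856, and their sequences were not compared here. How reads that fit several of them were assigned is not given in the sources used here, so each gene's value is uncertain and sums are given as well.

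Prx6b was at 27.1, 34.1 and 44.0 CPM in the glial libraries, 9.79, 9.90 and 9.62 CPM in the neuronal libraries, and 66.6, 47.2 and 41.2 CPM in the control libraries. The neuronal libraries were the lowest by a wide gap and nearly equal to each other, while glial 3 reached into the control range. Prx6b fell 5.29-fold in the neuronal line (-2.40 ± 0.22, adjusted p = 0.00342), under all 17 alternatives. In the glial line it was at -0.56 ± 0.21 (adjusted p = 0.181, interval -1.04 to -0.08).

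CG12896, a predicted peroxiredoxin, followed the same order. It was at 16.1, 23.8 and 36.2 CPM in glial libraries, 5.90, 8.14 and 7.005 CPM in neuronal libraries, and 41.5, 32.4 and 23.3 CPM in control libraries. Neuronal values lay below all others, and glial and control values overlapped. CG12896 fell in the neuronal line by a log2 fold change of -2.21 ± 0.32 (adjusted p = 0.0189), a call lost without neuronal 1, neuronal 2, neuronal 3 or control 1 and with the replicate block (adjusted p = 0.0656 to 0.113). In the glial line it was at -0.35 ± 0.30 (adjusted p = 0.568).

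Prx6c showed another order. It was at 48.7, 51.5 and 54.4 CPM in the glial libraries, 21.3, 21.2 and 21.1 CPM in the neuronal libraries, and 36.6, 27.1 and 25.9 CPM in the control libraries. The 3 groups did not overlap, with glial highest and neuronal lowest. The rise in the glial line was 1.72-fold (0.79 ± 0.14, adjusted p = 0.0167), a call lost in 6 of 17 alternatives: unscaled library totals, a fit to the 6 libraries compared, and the omission of glial 2, glial 3, control 2 or control 3 (adjusted p = 0.0537 to 0.0735). In the neuronal line the difference of -0.50 ± 0.14 did not pass (adjusted p = 0.17).

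**Figure D3:**
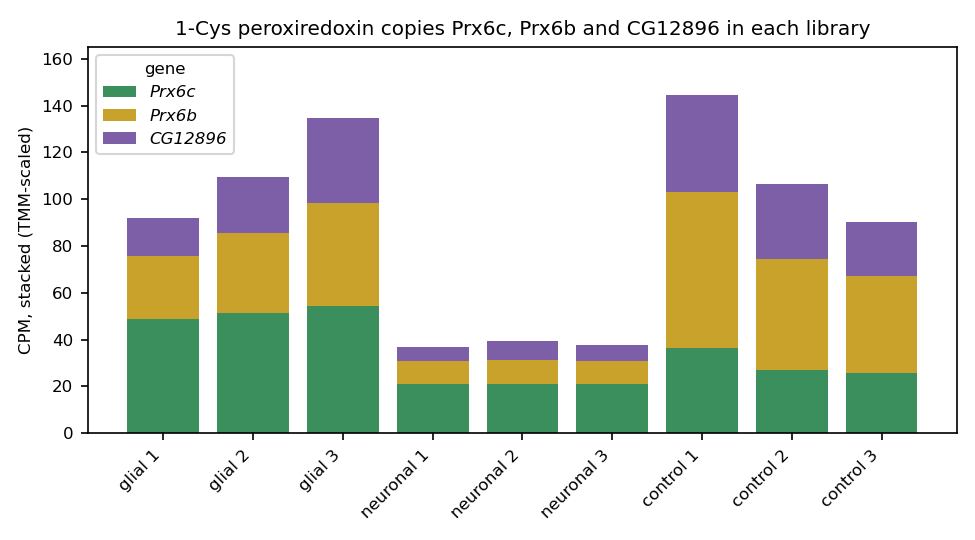
Stacked CPM of Prx6c, Prx6b and CG12896 in each library (bars from 0), glial, neuronal and control from left to right. The sums are 91.9 to 135 CPM in glial, 36.9 to 39.2 CPM in neuronal and 90.4 to 145 CPM in control libraries, and the Prx6c portion is larger in glial than in control libraries.

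Summed over the 3 genes, the level was 112 ± 21.4 CPM in glial, 38.0 ± 1.17 CPM in neuronal and 114 ± 27.9 CPM in control libraries. The sum fell in the neuronal line (-1.59 ± 0.20, adjusted p = 0.00947), and in the glial line it stood at -0.03 ± 0.19 (adjusted p = 0.961). Prx6c made up 53.0%, 47.0% and 40.4% of the sum in glial libraries, 57.5%, 54.0% and 55.9% in neuronal libraries, and 25.3%, 25.4% and 28.7% in control libraries. Both driver lines thus had a larger Prx6c share than any control library.

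Within the other pair, Prx6b held 58.8 ± 3.88% of the counts in glial, 58.4 ± 3.77% in neuronal and 61.6 ± 2.28% in control libraries, which overlapped. With Prx6b and CG12896 as a single entry the neuronal difference was -2.32 ± 0.25 (adjusted p = 0.0071) and the glial difference -0.48 ± 0.24 (adjusted p = 0.315). Of the genes between Prx6c and Prx6b, CG33474 had 36, 18 and 11 counts in glial, 6, 7 and 2 in neuronal, and 2, 3 and 5 in control libraries. It was higher in the glial line at the edge of the threshold (2.38 ± 0.56, adjusted p = 0.0497), and CG11825 did not pass.

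Hemocyte genes, expressed by the blood cells of the fly, are given beside Prx6c. Of 11 tested hemocyte markers, 4 were higher in the glial line than in the control and 5 higher than in the neuronal line, with none lower. Over all tested genes 2.54% and 2.02% were higher in these comparisons. In neuronal against control edgeR, DESeq2 and limma-voom called 0, and 4 had an unadjusted p under 0.05. The scavenger receptor gene Sr-CI was at 15.1 ± 3.67, 4.85 ± 0.08 and 7.07 ± 0.44 CPM in glial, neuronal and control libraries (1.10 ± 0.18 for glial against control, adjusted p = 0.0118), and the clotting gene Hml at 218 ± 13.4 CPM in glial, 107 ± 25.5 in neuronal and 97.8 ± 8.01 in control libraries (1.16 ± 0.17, adjusted p = 0.00669). The list summed to 1272 to 1747 CPM in glial, 834 to 975 in neuronal and 966 to 1231 in control libraries. He did not pass the filter on low counts. The part of this list in the Prx6c difference was not tested.

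Of 14 tested fat body markers, edgeR called 3 higher in the glial line, 1 higher in the neuronal line and none lower against the control. DESeq2 called 3 and 2, and limma-voom 2 and 0. The list's median log2 fold change was 0.375 in the glial and -0.307 in the neuronal line. In glial against neuronal edgeR called 2 higher, with 2.02% over all tested genes, and DESeq2 called 5, with a list median of 0.68. The gene called in the neuronal line was the lipocalin gene NLaz, at 164 ± 37.5 CPM in neuronal and 80.7 ± 5.79 CPM in control libraries (1.03 ± 0.18, adjusted p = 0.0487). Their sum was 47500 to 164700 CPM in glial, 61530 to 81540 in neuronal and 91630 to 153700 in control libraries, and the part of this list in the differences of the peroxiredoxins was not tested.

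Counted over the 10 genes, the glial line had 1 higher (Prx6c) and 1 lower (Sod3) than the control, where 4.42% of all 11430 tested genes passed, 2.54% higher and 1.88% lower. DESeq2 called the same number, 2 of the 10, with 9.74% of all genes. The median log2 fold change was 0.04 over the 10 and 0.01 over all genes. The glial and control libraries did not overlap for 2 of the 10, with 25.0% over all genes.

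The neuronal line had 3 lower (Prx6b, CG12896 and Sod3) and 0 higher than the control, where 0.709% of all genes passed, 0.306% of all genes being higher and 0.402% lower, and the median was -0.31 over the 10 and 0.00 over all. An unadjusted p under 0.05 was found for 5 of the 10, each of them lower, and for 1518 of all 11430 genes. DESeq2, which called 4.11% of all genes, called Prx5 lower as well. For 7 of the 10 the neuronal and control libraries did not overlap, against 21.2% over all genes. Whether Prx6b and CG12896 share reads was not measured, since their sequences were not used here, so they may not be independent in this count. Both comparisons use the same control libraries.

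The glial and neuronal lines were also compared directly. Ube3a itself was higher in the glial than in the neuronal line (1.57 ± 0.14, adjusted p = 0.00063). The driver and the level of Ube3a RNA therefore cannot be told apart in this comparison. Prx6b was 3.59-fold higher in the glial line than in the neuronal line (1.84 ± 0.22, adjusted p = 0.00288), CG12896 3.62-fold (1.85 ± 0.31, adjusted p = 0.0147) and Prx6c 2.43-fold (1.28 ± 0.14, adjusted p = 0.00231). Sod3 was lower. These are 4 of the 10, where 3.69% of all tested genes passed, 2.02% higher and 1.67% lower. Whether Prx6b, Prx6c and CG12896 share reads was not measured, so they may not be independent in this count. DESeq2 also called 4, with 8.86% of all genes. The median was 0.26 over the 10 and 0.01 over all. The libraries did not overlap for 7 of the 10, with 22.7% over all genes. The call for CG12896 was lost without neuronal 1 or neuronal 3 and with the replicate block (adjusted p = 0.0522 to 0.0729).

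In this comparison 3 of 12 neuronal markers were lower in the glial line and none higher, with a median of -0.48. Over all tested genes 1.67% were lower. An unadjusted p under 0.05 was found for 9 of them and for 2077 of all 11430 tested genes. The active zone gene brp was at 220 ± 23.4 CPM in glial and 347 ± 24.3 CPM in neuronal libraries (-0.66 ± 0.13, adjusted p = 0.0282). The 12 summed to 3588 to 4522 CPM in glial, 4829 to 5386 in neuronal and 4502 to 4574 in control libraries, none was at 0, and their part in the differences between the lines was not tested.

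**Figure D4:**
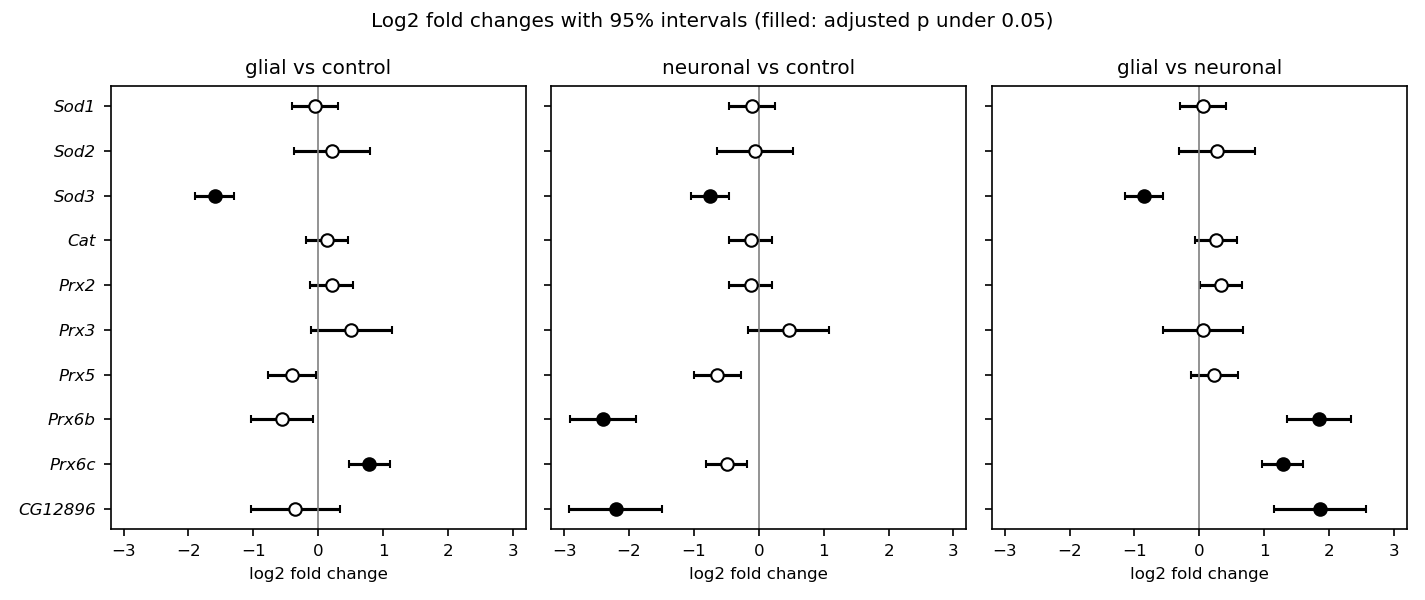
Log2 fold changes (horizontal axes) of the 10 genes in the 3 comparisons with 95% intervals; filled points have an adjusted p under 0.05. Sod3 is filled in all 3 panels, from -1.60 to -0.75, and Prx6b and CG12896 are filled on opposite sides of 0 in the neuronal against control and glial against neuronal panels.

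Enzymes that work beside these genes are given as lists. Of 8 other peroxide-removing enzymes, among them Prx4 and Prx6a, 2 rose in the glial line against the control by edgeR. In that comparison 2.54% of all tested genes were higher. DESeq2 called 3 of the 8 there and limma-voom 1. None passed in the neuronal line by edgeR, where 2 had an unadjusted p under 0.05 and DESeq2 called 1. The heme peroxidase gene cysu was at 5.82 ± 1.78, 2.43 ± 0.84 and 1.56 ± 0.30 CPM in glial, neuronal and control libraries (1.90 ± 0.33, adjusted p = 0.0149), and the peroxidase gene Pxd at 39.8 ± 19.2 CPM in glial, 18.1 ± 3.53 in neuronal and 11.4 ± 1.21 in control libraries (1.81 ± 0.36, adjusted p = 0.0274). The list's median was 0.30 in the glial and 0.20 in the neuronal line.

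Of 4 tested oxidant sources, 1 rose in the glial line against the control by edgeR, where 2.54% of all tested genes were higher. Duox, the dual oxidase that makes hydrogen peroxide, was at 21.4 ± 2.60, 15.9 ± 1.75 and 10.7 ± 1.44 CPM in glial, neuronal and control libraries (1.01 ± 0.16, adjusted p = 0.0091), and its neuronal difference of 0.58 ± 0.16 did not pass with edgeR (adjusted p = 0.154). DESeq2 called 2 of the 4 in the glial and 1 in the neuronal line against the control. Of 4 tested genes that supply NADPH, the reductant that recharges thioredoxin, none passed against the control by edgeR. Unadjusted p-values under 0.05 numbered 2 in the glial and 3 in the neuronal line, and DESeq2 called 1 and 2. Men, a malic enzyme gene, was at 1036 ± 168 CPM in glial, 482 ± 48.9 in neuronal and 700 ± 74.1 in control libraries, and was higher in the glial than in the neuronal line (1.10 ± 0.17, adjusted p = 0.00938).

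None of 13 tested genes for thioredoxin and glutathione supply passed in any comparison by edgeR. In glial against control 3 had an unadjusted p under 0.05 and DESeq2 called 1, in neuronal against control both counts were 0, and in glial against neuronal they were 4 and 1. Thioredoxin reductase Trxr1, which recharges the thioredoxin that serves the peroxiredoxins, was at 379 ± 83.5, 258 ± 57.2 and 264 ± 54.2 CPM in glial, neuronal and control libraries, a glial difference from the control of 0.52 ± 0.23 (adjusted p = 0.256). The list's median was 0.23 in the glial and -0.03 in the neuronal line against the control, and 0.30 for the glial against the neuronal line. None of 10 regulators of the antioxidant response, among them cnc and Keap1, passed in any comparison by edgeR, DESeq2 or limma-voom, with 1 unadjusted p under 0.05 in glial against control, and the list's medians were 0.05 and -0.01.

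Genes with the most similar pattern were sought by the root mean square difference of log2 CPM, centred per gene, over the 9 libraries. For Sod3 these were CG31248 (0.178), the transporter gene CG7888 (0.187) and the low Gr10a (0.192). For Prx6b the nearest was CG12896 (0.187), followed by the Turandot gene TotM (0.313) and the serpin gene Spn43Ad (0.430). For Prx6c they were eater (0.171), a phagocytic receptor gene on the hemocyte list, Ets21C (0.195) and Men (0.198). CG12896 had Prx6b, then feo (0.402) and Spn43Ad (0.426).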

How the data were processed

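RNA-seq of 3 glial, 3 neuronal and 3 control libraries was deposited as a table of whole-number counts per RefSeq transcript, which the authors made from Ion Torrent reads, per the labels and design text. Per the submitters' processing notes STAR and DESeq2 were used; genome build, counting tool and strandedness were not given in the sources used here. All 9 columns of per-library counts were mapped to labelled samples.

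Counts of 31838 transcript entries were summed per gene by RefSeq gene symbol: 31673 entries matched 15248 genes, and 165 without a match, with 0.297 to 0.685% of counts, were kept singly. Gene lengths, overlaps and neighbours are from an Ensembl annotation of genome release 6, and no coordinates are printed. Genes were filtered with filterByExpr (minimum count 10, minimum total 15), scaled by TMM and tested with edgeR's quasi-likelihood test (edgeR 4.0.16, R 4.3.3) in a single fit over all 9 libraries. P-values were Benjamini-Hochberg adjusted over all 11430 genes, with a threshold of 0.05. Values after ± are SDs of 3 libraries for levels and SEs for log2 fold changes.

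Alternatives were other scalings, no filter, DESeq2 1.42.0, limma-voom (limma 3.58.1), a replicate block, a gut covariate, the 6 libraries compared alone, single transcripts and the omission of each library. Sums of Prx6b, Prx6c and CG12896 and of Prx5 and CG7215 were added after seeing the data. Members, gene lists and tests were chosen with earlier results of these data known. Named genes are all 10 members, Ube3a and, per list, up to 4 genes past the threshold or otherwise up to 2 of the highest level. The 3 genes nearest in pattern to each member called are named too. The genes ninaE, He, cnc, Keap1, Prx4 and Prx6a, the list names and the neighbours of Prx6b and Prx5 are named as background or for their place. Libraries of a group differed far beyond counting noise, so none was counted as a duplicate.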

Additional observations from a re-analysis of the deposited data

Results flagged for a closer look

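For 4 genes the glial and neuronal lines differed from each other in a direct test, which is the test of the difference between their effects against the shared control. On the log2 scale the glial line minus the neuronal line was -0.85 for Sod3, which was lower than the control in both lines, and 1.84 for Prx6b and 1.85 for CG12896, which passed the threshold against the control in the neuronal line alone. For Prx6c it was 1.28, with the glial line above the control and the neuronal line below it in all 3 libraries each.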

How the results depend on the processing

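Each of the 10 genes was tested in 3 comparisons under 17 alternatives that keep sums per gene. Of these 510 values, 469 kept their direction and their side of the threshold, 27 lost a call, 1 gained a call and 13 changed sign, all 13 for differences that did not pass the threshold before or after. For Sod1 in glial against control the sign turned without glial 2 (0.06) and without control 3 (0.09), with a range of -0.15 to 0.09 over omitted libraries, in neuronal against control without control 3 (0.04; -0.19 to 0.04), and in glial against neuronal with library totals (-0.10) and without glial 1 (-0.04; -0.04 to 0.17). For Sod2 it turned in glial against control without glial 2 (-0.06; -0.06 to 0.48), and in neuronal against control with library totals (0.02), the gut covariate (0.07) and without control 1 (0.04; -0.20 to 0.04). For Prx3 in glial against neuronal it turned with library totals (-0.15), limma-voom (-0.01), without glial 3 (-0.26) and without neuronal 1 (-0.03; -0.26 to 0.32). Summing Prx6b, Prx6c and CG12896, an alternative chosen after seeing the data, took Prx6c in glial against control to -0.03.

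The number of the 10 genes called in glial against control was 2, and 1 with library totals or the 6 libraries alone (1 to 2 over omitted libraries). In neuronal against control it was 3, and 1 with the replicate block (1 to 2 over omitted libraries). In glial against neuronal it was 4 (3 to 4 over omitted libraries). Deviations of same-numbered libraries correlated at -0.53 to -0.31 in glial against control and -0.10 to 0.02 in glial against neuronal. In neuronal against control r was 0.37, 0.35 and -0.08, with -0.59 to 0.32 for libraries of unlike number. The numbers were not taken as pairs in the main fit. Whether neuronal and control libraries were paired cannot be told from these values, so the replicate block is given as an alternative.

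Over all genes, glial against control called 505, against 281 with library totals, 1113 with DESeq2, 281 with the replicate block, 274 with the 6 libraries alone, 946 over single transcripts and 181 to 447 over omitted libraries. Neuronal against control called 81, against 44 with library totals, 470 with DESeq2, 15 with the replicate block, 151 over single transcripts, 50 with the gut covariate and 16 to 62 over omitted libraries. Glial against neuronal called 422, against 243 with library totals, 1013 with DESeq2, 241 with the replicate block, 227 with the 6 libraries alone, 850 over single transcripts and 154 to 392 over omitted libraries. Library totals moved the median of all genes in glial against neuronal to -0.147, and made 44.8% of the calls higher in glial against control, 61.4% in neuronal against control and 39.1% in glial against neuronal, where TMM gave 57.4%, 43.2% and 54.7%. Relative to that median Prx3 stood at -0.01 and Sod1 at 0.05. The cause of these moves was not tested. With 3 libraries a group, a p that missed the threshold does not show that levels were equal.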
